A study of Mus musculus with 12 samples.

Results

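Rsad2 and Cmpk2, neighbouring mouse genes on chromosome 12, were followed through 12 RNA sequencing libraries in which 53647 genes were counted. The 2 genes were chosen because their counts were higher in uniSTING than in control libraries in all 3 comparisons of the study, including one in which most other interferon genes moved little, so their values in those comparisons are given as a description without a test. The libraries form 6 groups of 2, a preparation 1 and a preparation 2, and all cells are wild type by their labels. By their labels, cells of the immortalized murine dendritic line DC2.4 and of the murine breast tumour line 4T1 received mRNA encoding uniSTING, a mimic of the interferon-inducing adaptor STING, or mRNA encoding the fluorescent protein EGFP, called Mock. In the third pair of groups, cells labelled DC2.4 were incubated for 24 h with extracellular vesicles of 4T1 cells given uniSTING mRNA (EXOuniSTING) or Mock mRNA (EXOmock). The mRNA came either with a transfection reagent or in lipid nanoparticles, and the labels do not say which was used for which library, nor for how long. Whether the preparations are separate cultures is not given either. The p-values then reflect no more than the variation from one library to the other, and this may be technical.

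Rsad2 encodes viperin, a radical S-adenosylmethionine enzyme that sits on the endoplasmic reticulum and lipid droplets and converts the nucleotide CTP into ddhCTP, a chain terminator for the polymerases of some viruses. Cmpk2 encodes a mitochondrial kinase that phosphorylates the monophosphates UMP, CMP and dCMP, and in macrophages it has been linked to the supply of nucleotides for mitochondrial DNA synthesis. Both genes are switched on by type I interferon, which acts through interferon-stimulated response elements in its target genes, and Rsad2 can also be induced directly by interferon regulatory factors. In vertebrate genomes the pair lies side by side.

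In both sets that received mRNA, marker genes did not match the labelled cell line. The defining epithelial gene Epcam stood at 286 to 318 CPM (counts scaled to 1 M counts of the library) in the 4 mRNA-treated libraries with the DC2.4 label, and at 0 to 5 counts in the 4 labelled 4T1. The leukocyte gene Ptprc had 0 to 19 counts in the first set and stood at 310 to 327 CPM in the second. In the 4 libraries given vesicles, also labelled DC2.4, Ptprc stood at 302 to 310 CPM and Epcam at 0 to 11 counts. Summed over 20 epithelial markers the 3 sets lay at 5804 to 6098, 171 to 173 and 136 to 152 CPM, and over 26 leukocyte markers at 164 to 224, 11524 to 11932 and 14198 to 17191 CPM. Groups are named by their labels throughout. Library totals were 14.1 to 26.0 M counts. A list of 21 transcripts of other tissues, such as insulin and lung surfactant genes, summed to 117 to 213 CPM in the preparation 1 libraries and to 1.45 to 18.8 CPM in those of preparation 2, so the values of both preparations are given for each member. The part of these differences in the results was not tested.

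The pair stood alone in its stretch of chromosome 12. Rsad2 (ENSMUSG00000020641) spans 26492745 to 26506451 on the minus strand of GRCm39 and Cmpk2 (ENSMUSG00000020638) spans 26519203 to 26529836 on the plus strand. The genes are thus transcribed away from each other, with 12751 bases between their starts, and no other gene model overlaps either of them, so the unstranded counting could not mix their reads with those of an antisense gene. Of 12 other gene models within 500 kb of the pair, 10 had 0 counts in all 12 libraries, and 1 had 2 counts. The remaining one, the ubiquitin ligase gene Rnf144a, had 16 counts in all, of which 1 to 4 lay in each preparation 1 library and 0 in preparation 2. None of the 12 had enough counts to be tested. The nearest tested genes were Id2, an inhibitor of basic helix-loop-helix factors, at 1346 kb on one side, and the ribosomal protein gene Rps7 at 2151 kb on the other. Id2 rose from 7.66 ± 0.885 to 17.6 ± 1.24 CPM (SD, n = 2) with uniSTING under the DC2.4 label (edgeR adjusted p = 1.95e-07), fell from 76.2 ± 0.454 to 60.9 ± 0.514 CPM under the 4T1 label (edgeR adjusted p = 0.000287) and rose from 37.1 ± 2.73 to 49.0 ± 2.59 CPM with EXOuniSTING (edgeR adjusted p = 0.00104).

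**Figure D1:**
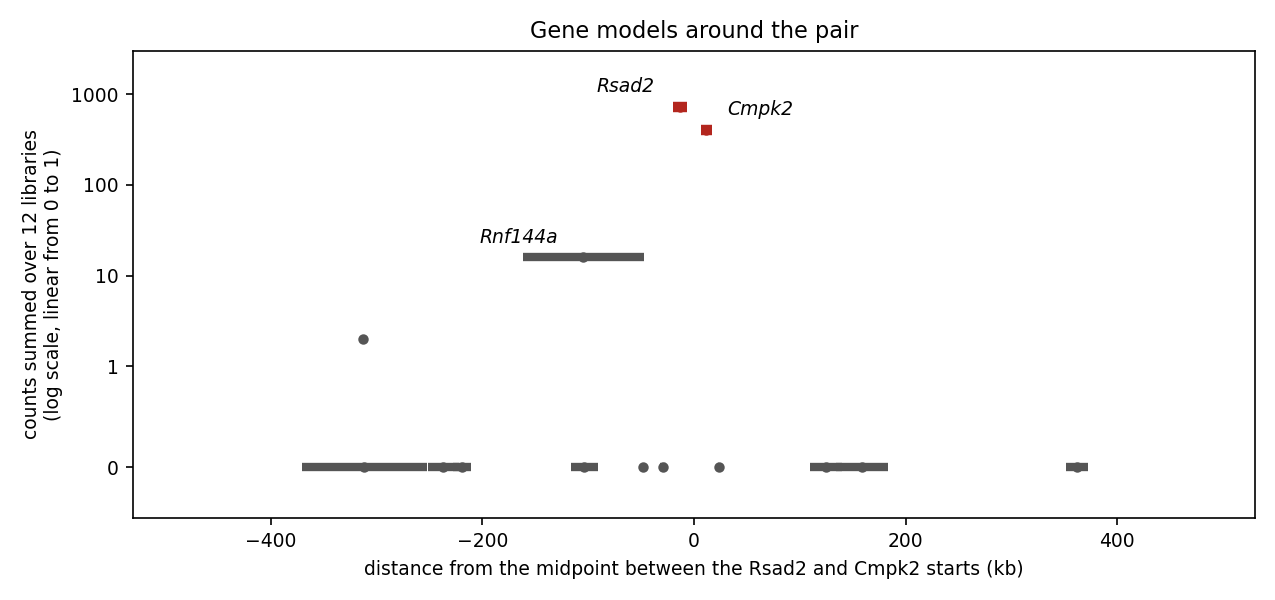
Gene models within 500 kb of the pair, drawn at their distance in kb from the midpoint between the Rsad2 and Cmpk2 starts (bars span each model) against counts summed over the 12 libraries on a log scale that is linear from 0 to 1. Rsad2 with 729 counts and Cmpk2 with 403 stand above all 12 other models, of which Rnf144a comes next with 16.

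The stretches upstream of both starts are shown because interferon can act through elements near gene starts, and the windows of these neighbours differ in the letters of such an element. Which elements control either gene was not tested. The 250 bases before each start, from RefSeq on GRCm38.p6, are given on each gene's own strand, with those of Isg15, the gene whose pattern over the libraries was most like that of the pair. Capitals mark matches, on either strand, to the core of the interferon-stimulated response element, which is GAAA, any 2 bases and GAAA, or to a related run of AAA, any 2 bases and GAAAC. Both members were matched in the table by symbol. Rsad2 lies at chr12:26456453-26456702 on the minus strand, Cmpk2 at chr12:26468965-26469214 on the plus strand and Isg15 at chr4:156200819-156201068 on the minus strand.
Rsad2: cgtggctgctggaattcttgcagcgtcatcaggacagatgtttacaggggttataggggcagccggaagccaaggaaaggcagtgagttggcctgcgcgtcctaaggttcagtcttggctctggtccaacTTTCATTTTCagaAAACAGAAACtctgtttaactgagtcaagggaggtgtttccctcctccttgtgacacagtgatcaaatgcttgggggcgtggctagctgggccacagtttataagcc
Cmpk2: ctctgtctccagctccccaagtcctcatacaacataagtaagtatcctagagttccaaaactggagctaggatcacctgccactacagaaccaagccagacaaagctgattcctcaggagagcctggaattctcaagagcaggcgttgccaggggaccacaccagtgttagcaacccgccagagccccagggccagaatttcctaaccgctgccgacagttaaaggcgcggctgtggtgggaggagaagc
Isg15: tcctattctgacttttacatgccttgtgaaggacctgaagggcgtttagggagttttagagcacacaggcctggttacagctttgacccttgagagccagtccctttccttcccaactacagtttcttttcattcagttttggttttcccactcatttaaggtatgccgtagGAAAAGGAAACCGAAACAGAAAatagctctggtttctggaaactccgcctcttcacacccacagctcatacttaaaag

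The Rsad2 window held 1 match to the response element core, on the reverse strand and read here as TTTCATTTTC, at 120 to 111 bases before the start. It also held 1 match to the related run, read as AAACAGAAAC, at 107 to 98 bases before the start. The related run was searched after the sequence was seen. The Cmpk2 window held no match to either. Isg15 held 3 overlapping matches to the core between 78 and 57 bases before its start, and 2 matches to the related run that overlap them. Counted over windows of 300 bases, from 250 before to 50 after a start, 3.44% of 32851 promoters held the core and 2.24% the related run. Among 50 genes of the interferon-stimulated list with a promoter in the table, 26 held the core. Neither Rsad2 nor Cmpk2 held the gamma-activated site TTCNNNGAA (8.30% of promoters) or an NF-kB site (8.46% of promoters). A missing match says only that these letters are not in this window.

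In control cells the pair was low, and Cmpk2 was lowest in the leukocyte-like libraries. Rsad2 stood at 1.54 and 1.50 CPM in the Mock libraries labelled DC2.4 (preparations 1 and 2), at 0.447 and 0.476 CPM in the Mock libraries labelled 4T1 and at 0.925 and 0.695 CPM in EXOmock. Cmpk2 stood at 2.29 and 2.04 CPM in the Mock libraries labelled DC2.4, where it had 40 and 45 counts. It had 1 and 0 counts in the Mock libraries labelled 4T1, and 3 and 1 counts in EXOmock. All 4 of these leukocyte-like control libraries thus lay at or under a floor of 3 counts (0.119 to 0.213 CPM), where an absent transcript and a rare one cannot be told apart at this depth.

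The difference between the Mock groups is given as a description without a test, because the same libraries served in the comparisons on which the genes were chosen. Rsad2 was 3.27 times lower under the 4T1 than under the DC2.4 label (95% counting interval 1.94 to 5.73), a log2 fold change of -1.77 (SE 0.28). Cmpk2 was 92.6 times lower (1 against 85 summed counts, 95% counting interval 16.2 to 3701). Both genes were lower in both libraries, as were 44.1% of tested genes. Its fitted log2 fold change of -6.26 rests on that 1 count and moved to -8.48 without the Mock library of preparation 1 labelled 4T1. It was -5.19 without that of preparation 2. These cells differed broadly: 42.4% of 14863 tested genes were called lower in this contrast. In bulk libraries, fewer cells that use a gene and less of its RNA per cell cannot be told apart.

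EXOmock and the Mock libraries labelled 4T1, both leukocyte-like, are described in the same way. The log2 fold change was 0.78 for Rsad2 (SE 0.33, ratio 1.71 with a 95% counting interval of 0.918 to 3.23), and the libraries did not overlap, as for 37.4% of tested genes. For Cmpk2, 4 summed counts stood against 1 (ratio 5.26, 95% counting interval 0.521 to 259). Its fitted log2 fold change of 2.13 became 4.37 without the Mock library of preparation 1 and 1.06 without that of preparation 2. It was 1.01 without the EXOmock library of preparation 1 and 2.88 without that of preparation 2. Both intervals include a ratio of 1. Of all tested genes 26.1% were called higher here.

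With uniSTING mRNA under the DC2.4 label, both genes were higher in both preparations. Rsad2 went from 1.54 and 1.50 CPM in Mock to 5.73 and 6.42 CPM in uniSTING, a ratio of 4.04 (95% counting interval 3.04 to 5.43) and a fitted log2 fold change of 2.02 (SE 0.21). Cmpk2 went from 2.29 and 2.04 CPM to 5.57 and 4.79 CPM, a ratio of 2.38 (95% counting interval 1.85 to 3.10) and a log2 fold change of 1.28 (SE 0.30). The uniSTING libraries of both genes lay above the Mock libraries without overlap. In this comparison the same held for 33.4% of the 14863 tested genes, so the separation alone marks little.

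Under the 4T1 label the levels were lower and the pair was again higher with uniSTING. Rsad2 had 8 and 12 counts in Mock and 35 and 36 in uniSTING, or 0.447 and 0.476 against 1.78 and 1.39 CPM. This is a ratio of 3.35 (95% counting interval 2.02 to 5.82) and a fitted log2 fold change of 1.72 (SE 0.28). Cmpk2 had 1 and 0 counts in Mock and 10 and 11 in uniSTING, or 0.509 and 0.423 CPM in the latter. Its ratio was 19.8, with a 95% counting interval of 3.19 to 820, since it rests on 1 control count. Within preparation 1 it was 9.10, and within preparation 2, where Mock had 0 counts, it was at least 3.56 against a floor of 3 counts per library. The fitted log2 fold change of 3.95 became 6.21 without the Mock library of preparation 1 and 2.89 without that of preparation 2. The groups did not overlap for either gene, as for 33.9% of tested genes.

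With vesicles both genes were again higher with uniSTING. Rsad2 had 13 counts in each EXOmock library and 105 and 178 in EXOuniSTING, or 0.925 and 0.695 against 7.03 and 8.38 CPM. The ratio was 9.86 (95% counting interval 6.59 to 15.4) and the fitted log2 fold change 3.27 (SE 0.24). It was 7.61 within preparation 1 and 12.1 within preparation 2. Cmpk2 had 3 and 1 counts in EXOmock and 28 and 39 in EXOuniSTING, where it stood at 1.88 and 1.84 CPM. The ratio was 15.2 (95% counting interval 5.66 to 57.3), with 8.79 in preparation 1 and 34.3 in preparation 2, and the fitted log2 fold change was 3.85 (SE 0.50). Without the EXOmock library of preparation 1 the fitted value was 4.96, and without that of preparation 2 it was 3.08. The groups did not overlap for either gene, as for 28% of tested genes.

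**Figure D2:**
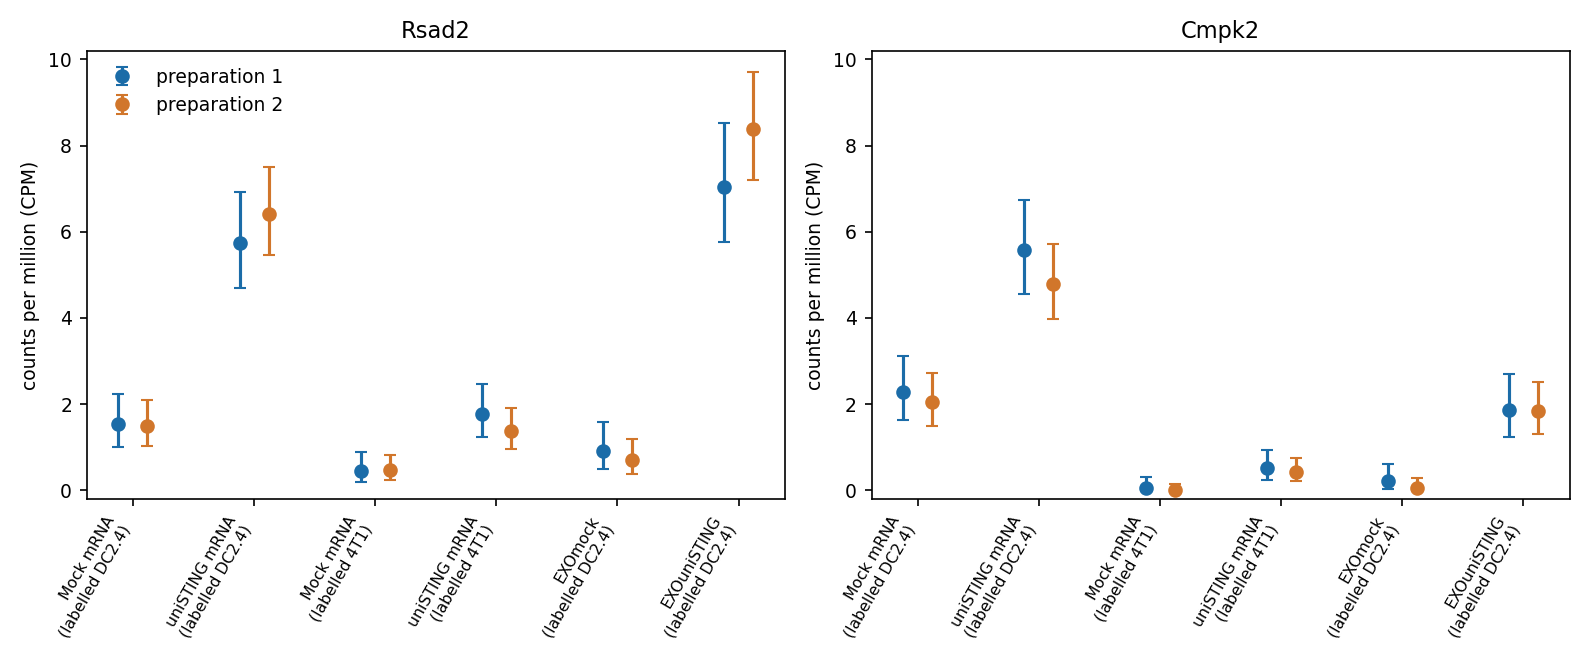
Rsad2 and Cmpk2 in each of the 12 libraries, in CPM, by group on the horizontal axis and with preparations 1 and 2 in blue and orange; bars are exact 95% binomial intervals, which cover counting error only. In each of the 3 pairs of groups both uniSTING libraries lie above both control libraries, and Cmpk2 is near 0 in the Mock libraries labelled 4T1 and in EXOmock.

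Ordered from low to high by group mean, Rsad2 ran from Mock labelled 4T1 (0.462 ± 0.0201 CPM, SD, n = 2) through EXOmock (0.810 ± 0.162), Mock labelled DC2.4 (1.52 ± 0.0320), uniSTING labelled 4T1 (1.58 ± 0.280) and uniSTING labelled DC2.4 (6.08 ± 0.488) to EXOuniSTING (7.71 ± 0.954). Mock labelled DC2.4 and uniSTING labelled 4T1 overlapped, so that Rsad2 in the uniSTING cells of one kind was at the Mock level of the other. No group was left without mRNA or vesicles, so a resting level is not known. Cmpk2 took another order: Mock labelled 4T1 (0.0280 ± 0.0396 CPM), EXOmock (0.133 ± 0.113), uniSTING labelled 4T1 (0.466 ± 0.0605), EXOuniSTING (1.86 ± 0.0276), Mock labelled DC2.4 (2.16 ± 0.172) and uniSTING labelled DC2.4 (5.18 ± 0.556). Its lowest neighbours overlapped and the others did not. EXOuniSTING thus held the highest Rsad2 level of the 6 groups and a Cmpk2 level below that of the epithelial-like Mock cells labelled DC2.4.

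The share of Cmpk2 within the pair was highest in the epithelial-like libraries. Their exonic lengths in the files are close, 4.34 kb for Rsad2 and 4.16 kb for Cmpk2. Per kb of exon, Cmpk2 stood at 1.54 and 1.42 times the level of Rsad2 in the Mock libraries labelled DC2.4 and at 1.01 and 0.776 times in uniSTING. In the 4 libraries labelled 4T1 the ratio was 0.130 and 0 in Mock and 0.298 and 0.318 in uniSTING, and in the vesicle-treated ones it was 0.240 and 0.0801 in EXOmock and 0.278 and 0.228 in EXOuniSTING.

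As a share of the counts of both genes, Cmpk2 held 42.7 to 59.7% in the 4 mRNA-treated libraries with the DC2.4 label. It held 0 to 23.4% in the 4 labelled 4T1 and 7.14 to 21.1% in the 4 vesicle-treated ones. The share of 0 rests on 12 counts, with an exact 95% upper limit of 26.5%. The first set did not overlap the others, and the leukocyte-like sets overlapped each other. This measure was picked after its values were seen and is a description without a test, since each set holds treated and control libraries together. Within the first set the share was 59.7 and 57.7% in Mock and 49.3 and 42.7% in uniSTING. These values did not overlap, but with 2 libraries in each group such separation alone marks little. Their exact 95% intervals did overlap between the groups, at 47.0 to 71.5 and 46.0 to 68.8% in Mock and 42.4 to 56.2 and 36.8 to 48.7% in uniSTING. Overlap of intervals of single libraries does not show that the shares are alike, and this difference was not tested.

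**Figure D3:**
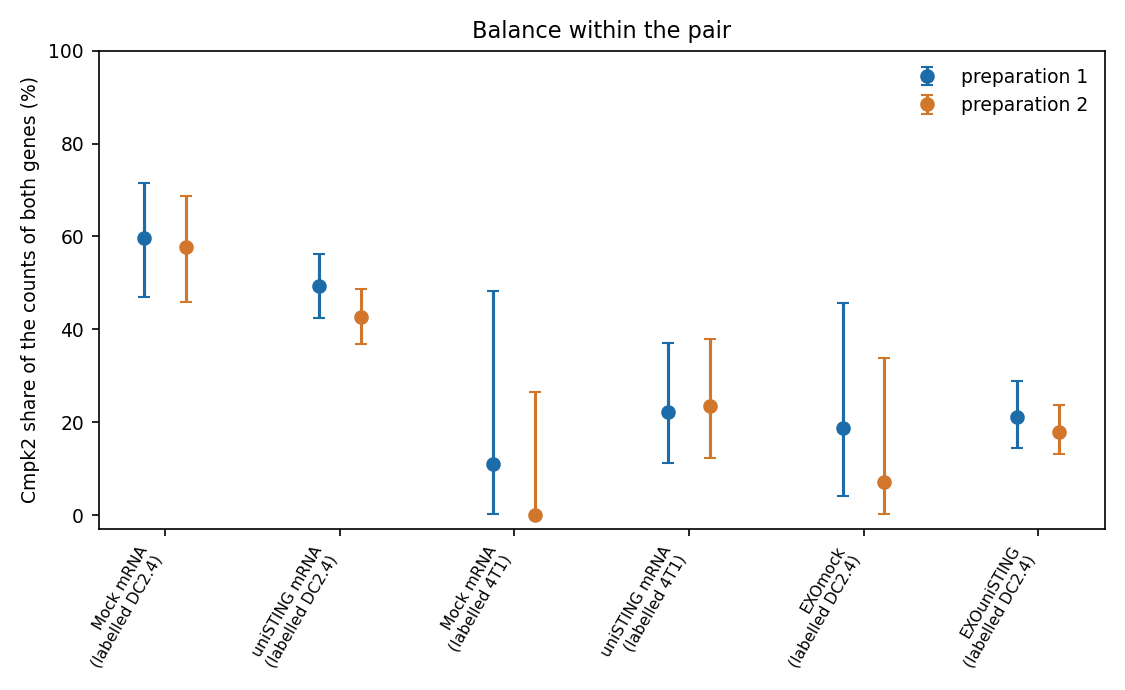
Share of Cmpk2 in the counts of both genes, in percent, for each library by group, with preparations 1 and 2 in blue and orange and exact 95% binomial intervals as bars. The 4 mRNA-treated libraries with the DC2.4 label lie between 42.7 and 59.7%, and the other 8 between 0 and 23.4%.

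The other interferon-stimulated genes set the frame in which the pair was chosen. From a list of 64 further genes, 60 could be tested. Under the DC2.4 label 49 rose and 2 fell, where edgeR called 20.8% of all tested genes higher and 20.9% lower. The count of genes that fell was 1 with upper-quartile factors, and 1 without the Mock library of preparation 1 or the uniSTING library of preparation 2. The median log2 fold change was 0.94, beside 0.00 over all tested genes. Irf7, the amplifying factor of the interferon response, rose from 2.00 ± 0.569 to 8.80 ± 1.22 CPM (SD, n = 2, edgeR adjusted p = 2.63e-07), and Ifit1, which binds foreign RNA, from 2.73 ± 0.586 to 12.3 ± 0.169 CPM (edgeR adjusted p = 5.12e-07). Of the 60 genes, 9 had a higher fitted fold change than Rsad2 and 21 a higher one than Cmpk2.

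Under the 4T1 label 10 of the 60 rose and 5 fell, beside 12.6% of all tested genes called higher and 15.7% lower, and the median was 0.06 beside -0.01 over all tested genes. Those that fell were 3 with DESeq2 and 3 without any 1 of the 4 libraries compared. No other listed gene had a higher fitted fold change than Rsad2 or Cmpk2, an order that the choice of the pair draws on. Ifi44 came next at 1.66, with 1 against 4 summed counts (edgeR adjusted p = 0.346). Among all 14863 tested genes, Rsad2 ranked 356 and Cmpk2 41 by fitted fold change, so genes outside the list rose more. Ifitm3, which blocks viral entry, rose from 229 ± 0.967 to 314 ± 3.47 CPM (edgeR adjusted p = 3.42e-07) and the immunoproteasome gene Psmb8 from 46.1 ± 1.49 to 64.8 ± 2.30 CPM (edgeR adjusted p = 4.25e-05). Samhd1, which degrades deoxynucleotides, fell from 198 ± 7.88 to 168 ± 4.93 CPM (edgeR adjusted p = 1.65e-05). Ifit1 stood at 0.565 ± 0.0705 and 0.543 ± 0.169 CPM in Mock and uniSTING (edgeR adjusted p = 0.897).

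With vesicles 41 of the 60 rose and 0 fell, beside 7.96% of all tested genes called higher and 8.14% lower, with a median of 0.53 beside 0.00. Oas3 rose from 9.16 ± 1.23 to 39.7 ± 0.386 CPM (edgeR adjusted p = 3.57e-08) and Oasl2 from 1.12 ± 0.0776 to 8.61 ± 0.990 CPM (edgeR adjusted p = 1.34e-07), both of the family that senses double-stranded RNA. Ifit1 rose from 0.775 ± 0.190 to 6.45 ± 0.0660 CPM (edgeR adjusted p = 3.56e-06). Of the 60 genes, 4 had a higher fitted fold change than Rsad2 and 2 a higher one than Cmpk2. Whether the pair's responses differ between the 3 comparisons was not tested, because the pair was chosen on them.

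**Figure D4:**
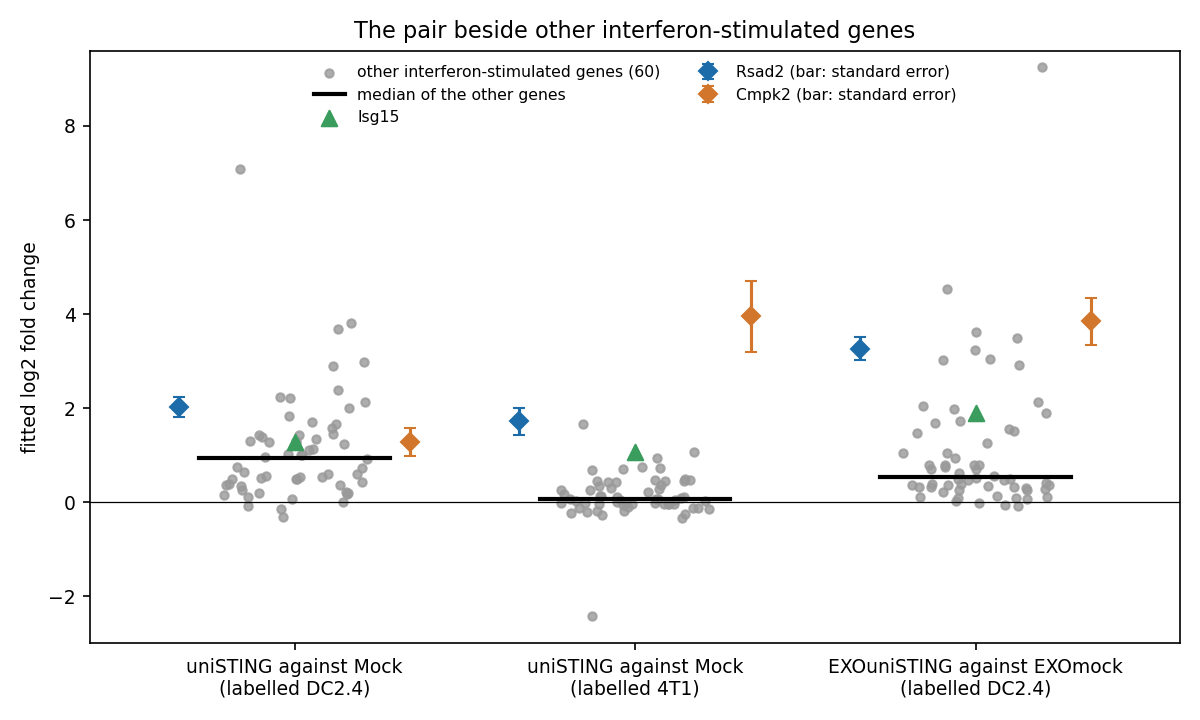
Fitted log2 fold change of uniSTING against control in the 3 comparisons for 60 other interferon-stimulated genes (grey points, median as a black line), Isg15 (green triangle), Rsad2 and Cmpk2 (diamonds). Bars on the diamonds are standard errors derived from the F test, which for Cmpk2 can be smaller than the counting error. Under the 4T1 label the grey points gather around a median of 0.06 while Rsad2 stands at 1.72, Cmpk2 at 3.95 and Isg15 at 1.07; values of genes with a group at 0 counts depend on the fit's prior count.

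Of 14863 tested genes, 65 were called higher by edgeR in all 3 comparisons, where 20.8, 12.6 and 7.96% were called higher in each. The comparisons share no libraries but come from a single fit with a shared estimate of the spread. A log2 fold change of at least 0.5 in each was seen for 4 of the 65: Rsad2, Cmpk2, Isg15 and H2-T24. The pair's place there follows from its choice and is not a test result. The next gene, Hotairm1, missed that limit with a smallest value of 0.49. Isg15 encodes a ubiquitin-like protein that is attached to other proteins in the interferon response. It stood at 10.3 and 11.4 CPM in Mock and 26.3 and 25.5 CPM in uniSTING under the DC2.4 label (log2 fold change 1.27, edgeR adjusted p = 8.27e-07). Under the 4T1 label it stood at 1.40 and 1.07 against 2.95 and 2.31 CPM (1.07, edgeR adjusted p = 0.00105), and with vesicles at 1.49 and 1.87 against 6.43 and 6.22 CPM (1.89, edgeR adjusted p = 1.18e-05). Its level was thus lower in both leukocyte-like control groups than in Mock labelled DC2.4, as for Rsad2 and Cmpk2.

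H2-T24, a nonclassical MHC class I gene with close copies among which reads may be split, rose by 1.30, 1.14 and 1.10 on the log2 scale in the order DC2.4 label, 4T1 label and vesicles (edgeR adjusted p = 0.0038, 0.0108 and 0.0239). In the Mock libraries it stood at 0.971 and 0.817 CPM under DC2.4 and 1.01 and 1.07 CPM under 4T1.

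Likeness to the pair was measured over the 12 libraries as Pearson's correlation of log2(CPM + 0.25), centred on the mean of each comparison's 4 libraries, with the mean of Rsad2 and Cmpk2. Rsad2 and Cmpk2 correlated with each other at 0.98 on this scale and at 0.84 without centring, where the low Cmpk2 of leukocyte-like cells enters. The 8 named genes most like them were Isg15 (0.97), the chemokine gene Ccl5 (0.95), the DNA sensor gene Ifi204 (0.94), Oas2 (0.94), Ifit3 (0.94), H2-T24 (0.92), the ISG15 protease gene Usp18 (0.92) and Irf7 (0.91), 6 of which are on the interferon list. On the interferon list are 60 of the 14863 tested genes. Only 23 genes besides the pair passed the limits of slope and level, and the slope limit itself asks for a change like that of the pair. How many of the 23 are on the list was not counted. These values describe 12 libraries in which each comparison shares its treatment contrast, and the pair was chosen on the same contrasts.

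Of these 8 genes, 4 did not pass the test under the 4T1 label. There Oas2 stood at 2.71 ± 0.267 and 3.56 ± 0.138 CPM in Mock and uniSTING (edgeR adjusted p = 0.178), Usp18 at 0.744 ± 0.182 and 1.08 ± 0.160 CPM (edgeR adjusted p = 0.377) and Ifit3 at 12 and 21 summed counts (edgeR adjusted p = 0.4). Ccl5 had 3 against 11 summed counts (edgeR adjusted p = 0.108). Ifi204 rose there from 3.90 ± 0.808 to 7.46 ± 0.613 CPM (edgeR adjusted p = 0.000411). Oas2 had 0 counts in both Mock libraries labelled DC2.4 and 35 summed counts in uniSTING, at least 10.5-fold higher against a floor of 3 counts over the group.

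**Figure D5:**
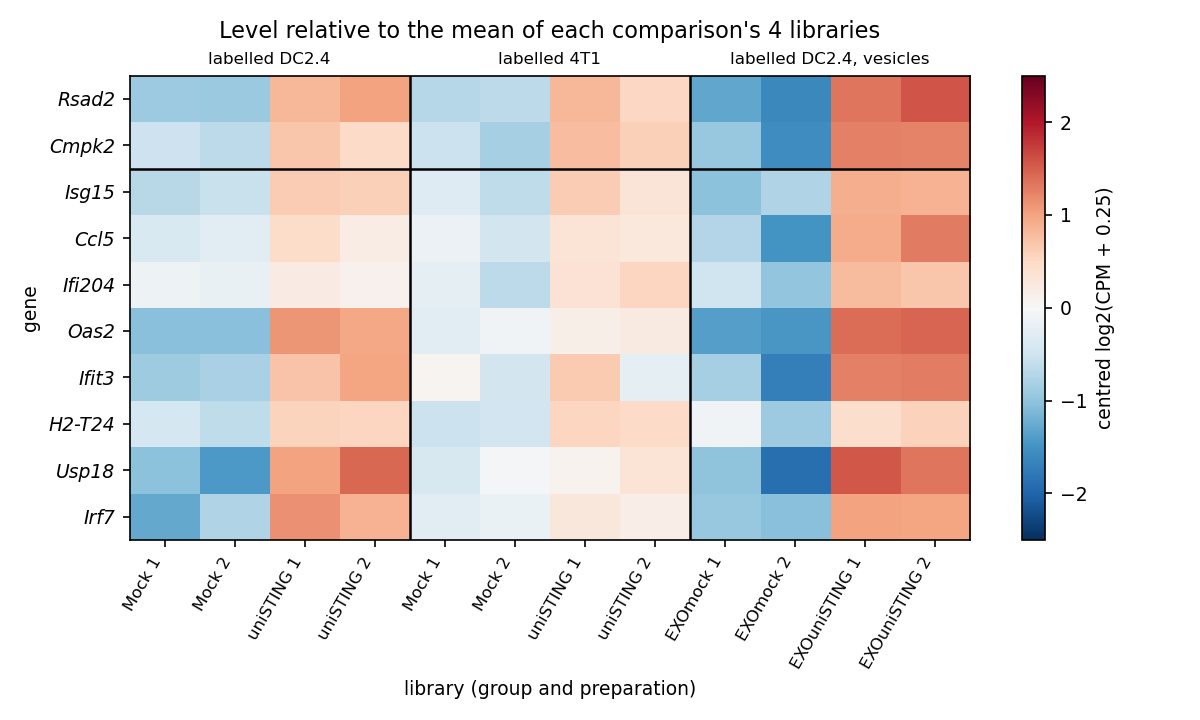
Centred log2(CPM + 0.25) in each of the 12 libraries (columns, in 3 blocks of 4 that are each centred on their own mean) for Rsad2, Cmpk2 and the 8 genes most like them (rows); red is above and blue below the block's mean. In the middle block, labelled 4T1, Mock and uniSTING differ less for Oas2 (fitted log2 fold change 0.36), Irf7 (0.43) and Usp18 (0.49) than for Rsad2 (1.72).

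Few genes that lead to interferon or receive it rose. Of 19 tested genes of interferon induction and its receptor, 2 rose and 6 fell under the DC2.4 label, 0 rose and 8 fell under the 4T1 label, and 2 rose and 1 fell with vesicles. Of all tested genes, 20.8% were called higher and 20.9% lower under the DC2.4 label, 12.6 and 15.7% under the 4T1 label, and 7.96 and 8.14% with vesicles. The median log2 fold changes of the list were -0.03, -0.09 and 0.05, beside 0.00, -0.01 and 0.00 over all tested genes. Under the 4T1 label, where the pair was higher, the kinase gene Ikbke fell from 87.5 ± 3.19 to 64.9 ± 2.26 CPM (edgeR adjusted p = 2.46e-05) and the receptor gene Ifnar1 from 119 ± 0.0565 to 97.6 ± 1.25 CPM (edgeR adjusted p = 1.82e-05). The interferon regulatory factor genes Irf7 and Irf9 were counted in the interferon-stimulated list. Irf7 was called higher in all 3 comparisons, with log2 fold changes of 2.12, 0.43 and 2.05 (edgeR adjusted p = 2.63e-07, 0.0434 and 1.19e-06). The factor gene Irf1, which can drive Rsad2 without interferon, fell under the 4T1 label from 22.6 ± 1.28 to 19.1 ± 0.467 CPM (edgeR adjusted p = 0.00564). It had adjusted p = 0.664 under the DC2.4 label and 0.3 with vesicles by edgeR. Tmem173, the gene of STING itself, had log2 fold changes of 0.09, 0.03 and 0.19 (edgeR adjusted p = 0.455, 0.837 and 0.0958), and Irf3 of 0.04, 0.09 and -0.17 (edgeR adjusted p = 0.7, 0.355 and 0.115). The interferon gene Ifnb1 had 3 and 0 counts in Mock and 4 and 8 in uniSTING under the DC2.4 label, 0 in all 4 libraries labelled 4T1, and 0 and 0 against 0 and 2 with vesicles, so a change in it was not detectable at this depth.

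Genes that work with viperin, by loading its iron-sulphur cluster or by binding it, changed by small amounts. Of 19 tested, 8 rose and 2 fell under the DC2.4 label, 7 rose and 2 fell under the 4T1 label, and 2 rose and 2 fell with vesicles, with medians of 0.11, 0.12 and 0.00. Called higher and lower were 20.8 and 20.9%, 12.6 and 15.7%, and 7.96 and 8.14% of all tested genes in the same order. None rose or fell at least 2-fold, while 2.19, 1.11 and 0.632% of all tested genes were called higher by that much in the 3 comparisons. At such shares a list of 19 may well hold none, and the share called lower by that much was not counted. Ciao2a, of the cytosolic assembly pathway that serves viperin, rose from 63.8 ± 0.902 to 92.7 ± 3.75 CPM and from 120 ± 3.81 to 152 ± 3.20 CPM in the mRNA comparisons (edgeR adjusted p = 6.72e-08 and 1.3e-05) and stood at 147 ± 1.59 and 136 ± 4.76 CPM with vesicles (edgeR adjusted p = 0.0603). Its partner Ciao1 rose under the DC2.4 label from 36.1 ± 1.03 to 45.6 ± 0.904 CPM (edgeR adjusted p = 9.99e-05), with adjusted p = 0.078 and 1 by edgeR in the others. Irak1, a kinase of Toll-like receptor signalling that viperin binds, fell under the 4T1 label from 132 ± 1.54 to 109 ± 0.676 CPM (edgeR adjusted p = 3.1e-06).

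Genes of pyrimidine nucleotide supply, the metabolism that Cmpk2 belongs to, mostly moved by small amounts. Of 29 tested, 11 rose and 3 fell under the DC2.4 label, 12 rose and 1 fell under the 4T1 label, and 4 rose and 2 fell with vesicles, with medians of 0.11, 0.14 and -0.02. Over all tested genes, 20.8, 12.6 and 7.96% were called higher and 20.9, 15.7 and 8.14% lower. None of the list rose or fell at least 2-fold. Of all tested genes, 2.19, 1.11 and 0.632% were called higher by that much, so a list of 29 may well hold none. The share called lower by that much was not counted. Cmpk1, the cytosolic counterpart of Cmpk2, stood at 97.2 ± 2.83 and 117 ± 0.521 CPM in Mock and uniSTING under the DC2.4 label (edgeR adjusted p = 1.2e-05), at 178 ± 2.65 and 186 ± 1.92 CPM under the 4T1 label (edgeR adjusted p = 0.456) and at 223 ± 0.0761 and 223 ± 8.35 CPM with vesicles (edgeR adjusted p = 0.972). The thymidylate kinase gene Dtymk had log2 fold changes of 0.25, 0.39 and -0.04 (edgeR adjusted p = 0.000223, 3.39e-05 and 0.644). Ctps, which makes the CTP that viperin consumes, had -0.05, 0.21 and -0.07 (edgeR adjusted p = 0.199, 0.000584 and 0.239). Cad, which starts pyrimidine synthesis, fell from 387 ± 5.19 to 200 ± 0.852 CPM under the DC2.4 label (edgeR adjusted p = 1.35e-11), rose from 204 ± 5.41 to 243 ± 1.62 CPM under the 4T1 label (edgeR adjusted p = 5.89e-05) and fell from 145 ± 3.33 to 121 ± 2.55 CPM with vesicles (edgeR adjusted p = 0.000147).

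Cmpk2 has also been tied to mitochondrial DNA upkeep and to the NLRP3 inflammasome, and a list of genes of these processes was counted. Of 22 tested, 5 rose and 5 fell under the DC2.4 label, 3 rose and 4 fell under the 4T1 label, and 3 rose and 2 fell with vesicles, with medians of 0.04, 0.03 and -0.02. The shares called over all tested genes were 20.8, 12.6 and 7.96% higher and 20.9, 15.7 and 8.14% lower. Of the list, 22.7, 13.6 and 13.6% were called higher, which is close to the shares over all tested genes in the mRNA comparisons. Nlrp3, which forms the inflammasome, fell under the 4T1 label from 45.5 ± 1.81 to 36.3 ± 1.24 CPM (edgeR adjusted p = 0.00166), and had a log2 fold change of -0.16 with vesicles (edgeR adjusted p = 0.151). The mitochondrial helicase gene Twnk fell from 53.7 ± 0.303 to 39.7 ± 0.613 CPM under the DC2.4 label (edgeR adjusted p = 4.96e-06) and by 0.21 on the log2 scale with vesicles (edgeR adjusted p = 0.00304).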

How the data were processed

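The authors deposited whole-number read counts per gene. Reads were aligned with HISAT2 (version not given in the sources used here) to GRCm39, per the submitters' processing notes, and uniquely mapped reads were counted over exons with featureCounts of Subread 2.0.1 in paired-end mode on Ensembl release 103 without a strand option, per the file headers. Symbols were matched for 52093 of 53647 genes. Libraries were made from 1.0 µg of total RNA, per the labels' protocols.

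All 12 libraries entered a single quasi-likelihood fit of edgeR 4.0.16 (R 4.3.3) with the 6 groups as terms, after TMM scaling and a filterByExpr step that kept 14863 genes. Its F tests were adjusted by Benjamini and Hochberg's method over those genes at a threshold of 0.05. Both members passed the filter, Rsad2 through 5 of 6 groups and Cmpk2 through 3. CPM are of deposited totals. Ratios of summed counts carry exact conditional 95% intervals. These intervals and the floors (3 counts) cover counting error only. The SE of a log2 fold change was derived from the F test, as its size divided by the square root of F. Where a control group had few counts, as for Cmpk2, this SE can be smaller than the counting error. The members and lists were chosen with earlier results of these data known. Genes named were the members and models within 500 kb with 10 or more counts. The 8 genes most like the pair were named too (slope of at least 0.5 and 1 CPM in the highest group). Others were those at least 0.5 higher on the log2 scale in all comparisons, and a fixed set of pathway genes. From each list, some genes that passed the threshold in a comparison were named, not always those with the smallest adjusted p. Id2, Rps7, Ifi44, Irf9, Hotairm1 and the Cmpk2 share were added after values were seen. Differences of the members between control groups were also fitted, but their p-values are not given, since the members were chosen on all 12 libraries. When the fit was tested on simulated counts, its recovery of larger changes fell just short of the level first required, which was then lowered, and false calls exceeded the nominal share in some comparisons. Calls near the threshold are less certain for this. Alternatives used DESeq2 1.42.0 and limma 3.58.1; scripts ran in Python 3.11.15 with scipy 1.17.1.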

Additional observations from a re-analysis of the deposited data

How the results depend on the processing

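The 3 counts or fewer of Cmpk2 in the Mock libraries labelled 4T1 and in EXOmock limit its fold sizes more than any other choice. Leaving out each library in turn gave 2.89 to 6.21 for its log2 fold change under the 4T1 label and 3.08 to 4.96 with vesicles. Over the other planned settings these lay between 3.57 and 4.27 and between 3.80 and 3.92. With only the libraries compared, Cmpk2 did not pass the filter under the 4T1 label or between EXOmock and Mock labelled 4T1 and has no value there. Rsad2 stayed between 1.55 and 1.90 under the 4T1 label when a library was left out.

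Within 1 preparation, a setting chosen after the data were seen, the log2 ratios with vesicles were 2.93 and 3.59 for Rsad2 and 3.14 and 5.10 for Cmpk2 in preparations 1 and 2. Within preparation 1, Cmpk2 had 3.19 under the 4T1 label and -5.35 between the Mock groups. The number of interferon-stimulated genes called lower was 3 under the 4T1 label with DESeq2, and 3 to 3 when a library was left out. Under the DC2.4 label it was 1 with upper-quartile factors and 1 to 2 when a library was left out. The cause of these differences was not tested. Leaving out a library gave 45 to 46 interferon-stimulated genes called higher under the DC2.4 label (49 with all), 7 to 9 under the 4T1 label (10) and 31 to 34 with vesicles (41). Of the planned values, 178 were counted as unchanged and 12 as moved. A count of genes was unchanged within 1.5 times that with all libraries. A uniSTING fold change was unchanged within its SE in the main fit. The moved values were Cmpk2 fold changes with uniSTING and counts of interferon-stimulated genes called lower. Every planned fold change of the pair kept its direction. Differences between control groups were judged by whether they passed the test's threshold, not by size. The Cmpk2 difference between EXOmock and Mock labelled 4T1, which ran from 1.01 to 4.37, was therefore counted as unchanged.

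The preparation number is shared between groups, and the labels do not say what it marks. With it as a replicate block, Rsad2 had log2 fold changes of 2.02, 1.71 and 3.28 and Cmpk2 1.27, 3.95 and 3.85 in the order DC2.4 label, 4T1 label and vesicles, and 12 instead of 10 interferon-stimulated genes were called higher under the 4T1 label. The other 5 counts of these genes were as without the block. Deviations of same-numbered libraries from their group means correlated at 0.54, 0.58 and 0.51 over 14863 genes, which are not independent replicates.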
